A study of Mus musculus with 6 samples.

Results

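The genes described are 32 members of the unfolded protein response and the integrated stress response, read by symbol in cultured neonatal mouse microglia with and without Plcg2. All 32 symbols were found among the 54347 gene rows of the table, on 33 rows, because Ddit3 has a second row (ENSMUSG00000116429.1) that is listed at 0 in every library. By role, 6 were sensors and the transcription factors they control (Ern1, Eif2ak3, Eif2ak4, Atf6, Xbp1 and Atf4), 15 were chaperone and quality-control genes known as targets of XBP1 or ATF6, and 11 were genes known as targets of ATF4. A mean of at least 1 TPM over the 6 libraries, the limit for testing, was reached by 31 of the 32 genes, and Chac1 was under it.

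Proteins that enter the endoplasmic reticulum (ER) are folded there by chaperones, and when unfolded protein accumulates, 3 membrane sensors respond. IRE1 (Ern1) splices Xbp1 mRNA into the form that encodes an active transcription factor, ATF6 is itself cut to release one, and PERK (Eif2ak3) phosphorylates the translation factor eIF2. GCN2 (Eif2ak4) phosphorylates the same factor when amino acids run short, and either kinase lowers protein synthesis while favouring translation of Atf4 mRNA, whose product switches on genes of amino acid supply and cell fate. Macrophages draw on these branches because they secrete and degrade much protein. Splicing of Xbp1, cleavage of ATF6, phosphorylation of eIF2 and translation of Atf4 are not measured by the mRNA levels given here.

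Poly(A)-selected RNA was measured in 3 libraries from Plcg2-/- and 3 from Plcg2+/+ C57BL/6 littermates, with pups aged 2 to 3 days. The microglia, the macrophages of the brain, were detached by shaking from mixed glia, grown with GM-CSF at 5 ng/mL and 10% serum, after 12 to 13 days and then held for 72 h or longer in 1% serum with GM-CSF, a growth factor of myeloid cells, at 0.5 ng/mL, as all 6 libraries were. Plcg2 encodes phospholipase C gamma 2, an enzyme of immune receptor signalling, and the labels name no cell type to which its loss is limited. The sources used here do not say which exons were removed, nor whether replicates are different animals or cultures. In Y-linked transcripts, given below, replicate 1 of each genotype differed from replicates 2 and 3. The libraries of a genotype therefore did not all come from 1 animal. The p-values measure the spread among these libraries only, which may be technical in part.

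Levels are TPM, in which transcript abundance is scaled to gene length and to a fixed total; the depth of the libraries is unknown from them. Plcg2 had 16.05, 16.7 and 16.1 TPM in the Plcg2-/- libraries, against 45.2, 39.7 and 54.9 TPM in the Plcg2+/+ libraries, so transcript remained in the knockout. Of the microglial markers reported here, P2ry12 and Aif1 were higher (log2 fold changes 2.03 and 2.29, limma adjusted p = 0.0166 and 0.0333), Itgam, Trem2 and Cx3cr1 were lower (-2.38, -1.73 and -1.27, limma adjusted p = 0.000946, 0.0139 and 0.0203), and Csf1r and C1qa did not pass. Cx3cr1 was near the floor, with 0.0763, 0.330 and 0.326 TPM in Plcg2-/- and 1.92, 2.92 and 1.34 TPM in Plcg2+/+ libraries. It reached the limit for testing only through the Plcg2+/+ libraries. The defining markers Tmem119 and Sall1 stayed at or below 0.569 TPM in Plcg2-/- and at or below 1.47 TPM in Plcg2+/+. Summed over 6 markers of border macrophages, the level was 376 to 606 TPM in Plcg2-/- and 181 to 283 TPM in Plcg2+/+ libraries; 3 of the 6 reached the testing limit and 2 of those rose, while the defining markers Cd163 and Lyve1 were at or near 0 in all 6. Mitochondrially encoded transcripts took 5.00, 8.23 and 8.68% of all TPM in the Plcg2-/- libraries and 15.6, 17.3 and 13.6% in the Plcg2+/+ libraries. Transcripts of 4 Y-linked genes summed to 58.6 TPM in Plcg2-/- 1 and to 107 and 112 TPM in Plcg2+/+ 2 and 3, against at most 0.994 TPM in the other libraries, so sex was not balanced between the genotypes. The X-inactivation transcript Xist had 18.4, 49.4 and 40.2 TPM in Plcg2-/- and 50.5, 0.747 and 1.02 TPM in Plcg2+/+ libraries. Plcg2-/- 1 thus held both Xist and Y-linked transcripts. Whether it mixes animals of both sexes was not tested. The part of these differences in the results below was not tested, apart from the scalings and the Y-linked covariate named there.

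The promoter windows of several members hold letters of elements through which the response is known to act, and those of the genes the results turn on are shown here. The windows are RefSeq promoters of GRCm38.p6, from 250 bases before to 50 bases after a gene's start, and 29 of the 32 members had one. Both strands were searched for the ER stress element (ERSE), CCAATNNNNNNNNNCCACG, for ERSE-II (ATTGG, 1 base of any kind, then CCACG), for the core of the UPR element, TGACGTGG, and for the C/EBP-ATF element (CARE), TGATGNAA; no matches overlapped in these windows. Capitals mark the fixed letters of a match, and a match on the other strand appears as its reverse complement. The first stretches are from chaperone targets with an ERSE, of which Hsp90b1 holds a pair, followed by Herpud1 with a CARE and an ERSE-II and by ATF4-type targets with a CARE.
Hsp90b1, distal, chr10:86705623-86705671, minus strand: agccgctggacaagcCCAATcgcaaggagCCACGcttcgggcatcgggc
Hsp90b1, proximal, chr10:86705518-86705566, minus strand: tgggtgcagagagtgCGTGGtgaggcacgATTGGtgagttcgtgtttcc
Calr, chr8:84847060-84847108, minus strand: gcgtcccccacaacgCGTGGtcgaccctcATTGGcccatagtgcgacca
Canx, chr11:50325785-50325833, minus strand: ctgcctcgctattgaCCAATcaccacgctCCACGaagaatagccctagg
Creld2, chr15:88819505-88819553, plus strand: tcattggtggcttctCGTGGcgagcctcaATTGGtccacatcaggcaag
Hspa5, chr2:34772020-34772048, plus strand: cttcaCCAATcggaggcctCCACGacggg
Herpud1, chr8:94386302-94386402, plus strand: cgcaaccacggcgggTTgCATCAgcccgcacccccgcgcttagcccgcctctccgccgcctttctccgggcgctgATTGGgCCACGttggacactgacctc
Nupr1, chr7:126625568-126625585, minus strand: ccagaTTgCATCAgacag
Asns, chr6:7693220-7693237, minus strand: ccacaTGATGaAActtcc

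An ERSE was present in 7 of the 14 chaperone targets that had a window (Hsp90b1, Calr, Canx, Creld2, Hspa5, Pdia6 and Dnajc3), which is 50%, against 39 of 32851 windows of all genes, 0.119%. ERSE-II was found in Herpud1 and Dnajb11, against 0.0365% of all windows. A CARE lay in Asns, Nupr1, Trib3 and Chac1, 40% of the 10 ATF4-type targets with a window, and in Herpud1, against 3.97% of all windows. The UPR element core was in no member's window and in 0.676% of all windows. The stretches of Hspa5, Nupr1 and Asns overlap an annotated exon, and that of Nupr1, placed by its RefSeq start, lies inside the GENCODE limits of the gene. The members were listed as known targets of the response, so these shares are no independent result about them. Shares of members count genes, while shares of all windows count windows and include those of the members. A match describes these letters in this window and is not a measured binding site.

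Plcg2-/- microglia were compared with Plcg2+/+ microglia to see whether these transcripts differ in level between the genotypes. Xbp1, Herpud1, Atf5, Sesn2 and Nupr1 rose in Plcg2-/- microglia and Hsp90b1 fell, while the sensor genes, the chaperone Hspa5 and Atf4 itself did not pass the test. Of the 31 members tested, 5 were higher and 1 was lower at a limma adjusted p below 0.05, that is 16.1% and 3.23%, and both shares were close to those of all 12652 genes tested, 15.6% higher and 5.31% lower. All 3 Plcg2-/- values lay above all 3 Plcg2+/+ values for 5 members and below them for 6, whereas over all genes tested 32.4% were above and 10.9% below. The plot of fold changes by role shows where the calls lay.

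**Figure D1:**
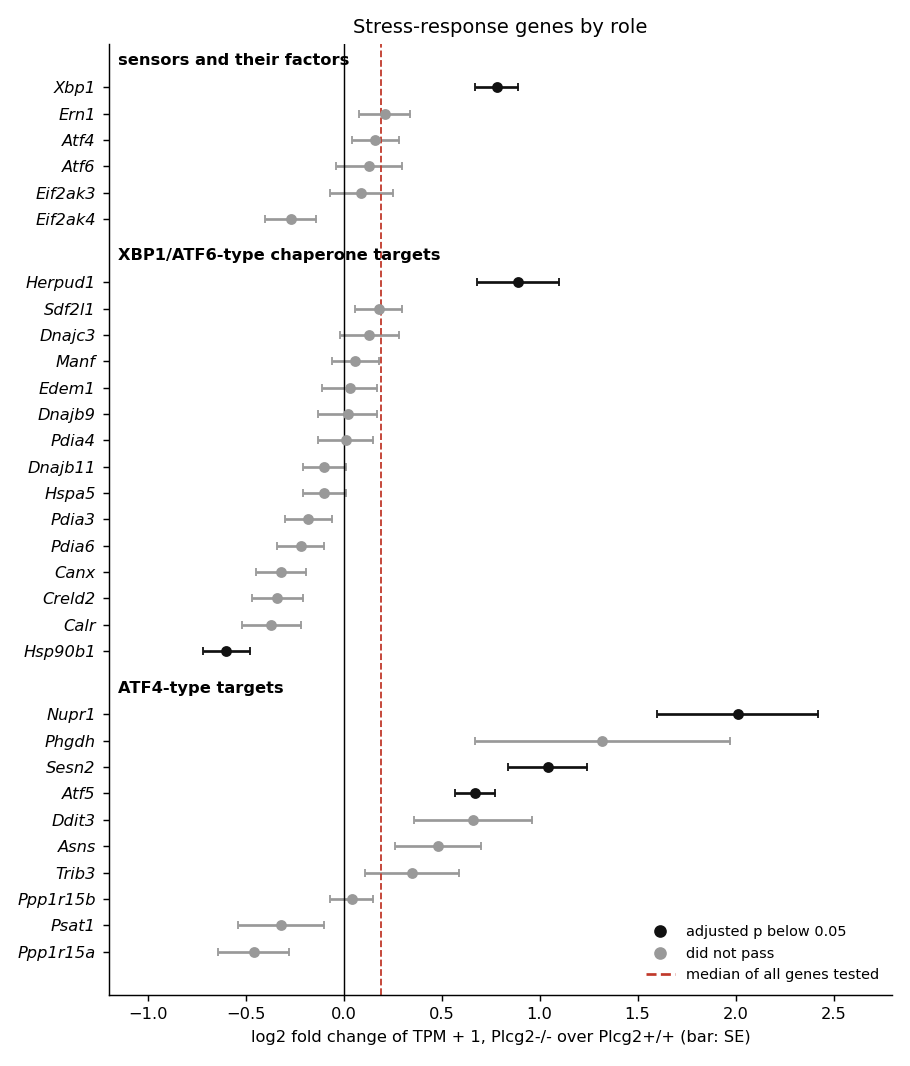
Log2 fold change of TPM + 1, Plcg2-/- over Plcg2+/+, for the 31 tested members by role (points; bars are the moderated SE; 3 libraries per genotype). Black points passed the test, and the dashed line is the median of all genes tested, 0.19; 14 of 15 chaperone targets lie below that line and 7 of 10 ATF4-type targets above it.

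The median log2 fold change of all genes tested was 0.19 on deposited TPM, against 0.03 once libraries were scaled by the median of ratios, and the signs of small changes move with this shift. With the deposited scale 1971 genes were higher and 672 lower, against 1000 higher and 911 lower after that scaling. The medians of the roles were 0.15 for the 6 sensors and their factors, -0.10 for the 15 chaperone targets and 0.57 for the 10 tested ATF4-type targets. After median-of-ratios scaling they were -0.02, -0.27 and 0.41, so that the median of the sensors and their factors changed sign while the other 2 kept theirs. The plot of medians gives them under 4 scalings. Median-of-ratios scaling and rescaling without mitochondrially encoded genes multiply every remaining TPM of a library by 1 factor. Quantile normalization replaces values by rank and keeps their order within a library. The order of the roles under these scalings is therefore no sign of stability. Leaving out Plcg2-/- 1 left 2 members higher and 0 lower by limma, where 559 genes in all were higher and 276 lower and 5 members were lower at an unadjusted p below 0.05 with all libraries. Leaving out either Plcg2-/- 2 or Plcg2+/+ 1 left 3 higher and 1 lower. With the replicate numbers as pairs, 6 members were higher and 2 lower, against 19.6% and 6.44% of all genes. These pairs were inferred from the same libraries, so a result with the pairs, here or below, is no independent support.

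**Figure D2:**
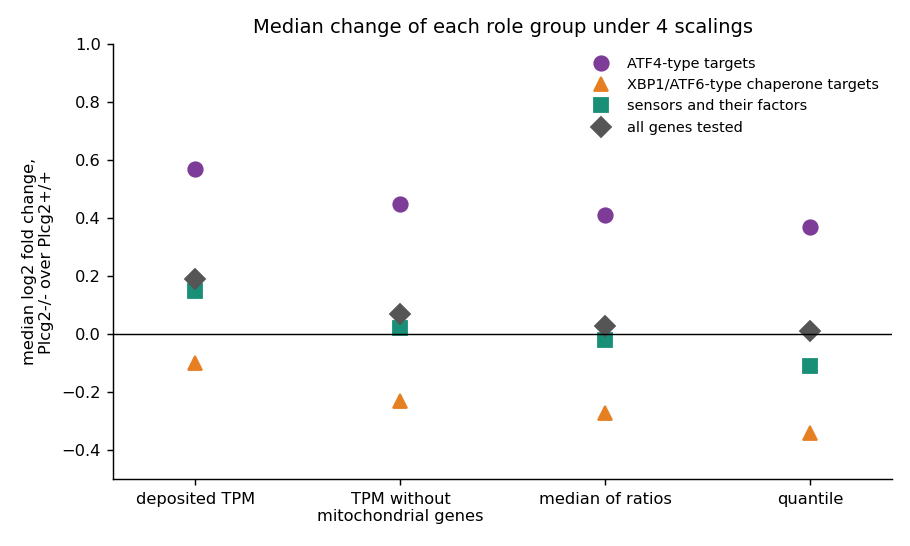
Median log2 fold change (Plcg2-/- over Plcg2+/+) of each role and of all genes tested, on the vertical axis, under 4 scalings of the same TPM values, on the horizontal axis. ATF4-type targets lie highest (0.57 to 0.37) and chaperone targets lowest (-0.10 to -0.34) under each of them.

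Among the sensors and their factors, Xbp1 rose and the genes of the 3 ER sensors and of GCN2 did not pass. Xbp1 (ENSMUSG00000020484.19, chr11:5520659-5525893 in GRCm38, plus strand, protein coding) encodes the transcription factor made after splicing by IRE1. It had 232, 217 and 237 TPM in the Plcg2-/- libraries, against 134, 121 and 145 TPM in the Plcg2+/+ libraries. Every Plcg2-/- library was above every Plcg2+/+ library. The mean was 229 ± 10.5 TPM in Plcg2-/- and 133 ± 12.2 TPM in Plcg2+/+ (SD, n = 3 each), and the log2 fold change was 0.78 ± 0.11 (SE; limma adjusted p = 0.00581). Xbp1 kept its call under all 17 other settings, with log2 fold changes of 0.51 to 0.84. Spliced and unspliced Xbp1 mRNA are counted together in a gene-level TPM, so the rise is one of both forms summed.

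The ER sensor genes were expressed far below Xbp1 and Atf4. Ern1, which encodes IRE1, had 13.0, 10.8 and 12.8 TPM in Plcg2-/- and 10.6, 11.2 and 9.57 TPM in Plcg2+/+ libraries. Eif2ak3, which encodes PERK, had 17.8, 11.5 and 14.6 TPM in Plcg2-/-, a range that spans the 13.9, 12.7 and 13.9 TPM in Plcg2+/+. Atf6, the gene of the third ER sensor, had 20.9, 15.7 and 21.9 TPM in Plcg2-/- and 17.96, 20.4 and 14.6 TPM in Plcg2+/+. The 3 genes overlapped between genotypes, with log2 fold changes of 0.21 ± 0.13, 0.09 ± 0.16 and 0.13 ± 0.17 (SE; limma adjusted p = 0.274, 0.733 and 0.608), and those of Eif2ak3 and Atf6 changed sign after median-of-ratios scaling. Eif2ak4, which encodes the amino acid sensor GCN2, had 10.9, 9.21 and 10.8 TPM in Plcg2-/-, each below the lowest of 14.0, 11.5 and 12.6 TPM in Plcg2+/+ libraries. Its log2 fold change of -0.27 ± 0.13 (SE) did not pass (limma adjusted p = 0.166), and passed at 0.0360 after quantile normalization and at 0.0474 with pairs and median-of-ratios scaling together. Over all 17 settings the adjusted p of Eif2ak4 ran up to 0.371.

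Atf4, the factor translated when eIF2 is phosphorylated, stood at 179.6, 163 and 149 TPM in the Plcg2-/- libraries and at 150.0, 132 and 157 TPM in the Plcg2+/+ libraries. Plcg2-/- 3 lay below 2 of the 3 Plcg2+/+ libraries, and the log2 fold change of 0.16 ± 0.12 (SE) did not pass (limma adjusted p = 0.369); it was -0.01 after median-of-ratios scaling. In the order of mean TPM over the 6 libraries, Xbp1 (181 TPM) stood above Atf4 (155 TPM), and in the Plcg2+/+ libraries alone Xbp1 (133 ± 12.2 TPM) and Atf4 (147 ± 12.8 TPM) overlapped in range.

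Of the 15 chaperone targets of XBP1 and ATF6, Herpud1 rose and Hsp90b1 fell, and the remaining 13 did not pass, so that 1 was higher and 1 lower beside 15.6% and 5.31% of all genes. After median-of-ratios scaling 0 were higher and 3 lower by limma, and after quantile normalization 0 and 4. Leaving out Plcg2-/- 1 gave 0 of each, and leaving out Plcg2+/+ 1, Plcg2-/- 2 or Plcg2-/- 3 gave 0 higher and 1 lower. Summed over the 15 genes, the level was 2681, 2701 and 3015 TPM in Plcg2-/- and 3223, 3440 and 3236 TPM in Plcg2+/+ libraries. Every Plcg2-/- sum lay below every Plcg2+/+ sum. The abundant genes weigh most in a sum, as with Hsp90b1 (means of 377 TPM in Plcg2-/- and 572 TPM in Plcg2+/+) and Calr (642 and 826 TPM). On deposited TPM 7 of the 15 log2 fold changes were above 0 and 8 below. In bulk RNA, fewer cells of a type and less RNA per cell cannot be told apart. The log2 fold change was below the median of all genes for 14 of the 15.

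**Figure D3:**
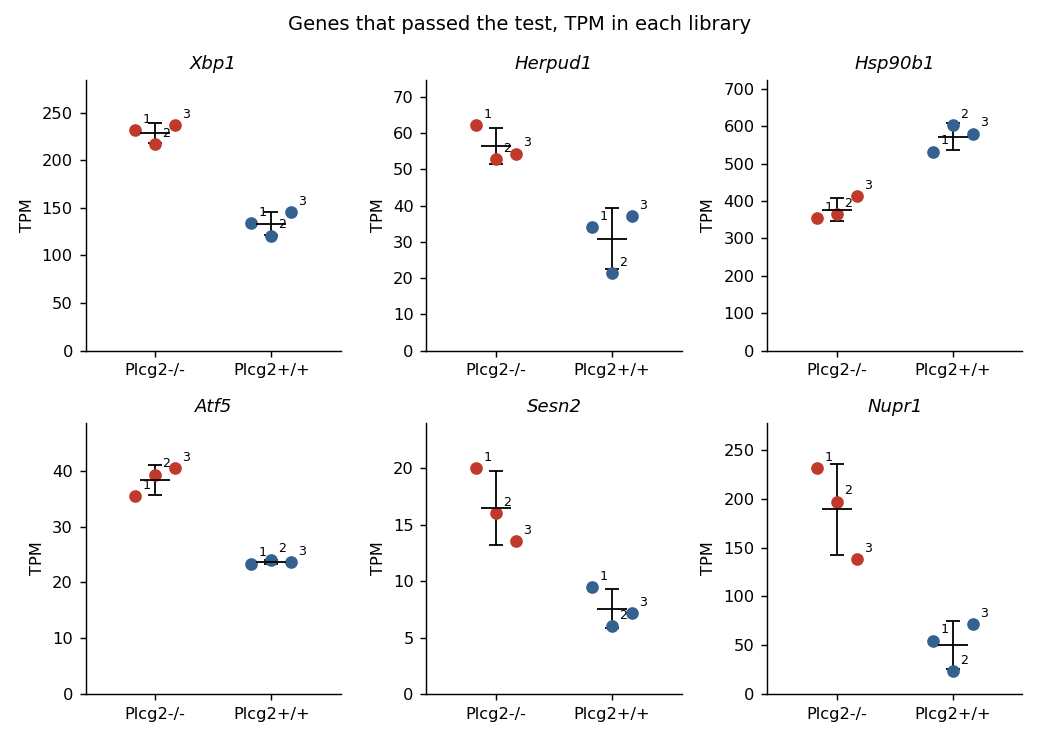
TPM of the 6 members that passed the test, in the 3 Plcg2-/- libraries (left, red) and the 3 Plcg2+/+ libraries (right, blue), numbered by replicate; black bars are mean and SD. The 3 values of each genotype do not overlap with those of the other in any panel, and Hsp90b1 is the only panel in which Plcg2-/- is lower.

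Hsp90b1 (ENSMUSG00000020048.13, chr10:86690209-86705509, minus strand, protein coding) encodes GRP94, an ER chaperone of the HSP90 family on which many Toll-like receptors and integrins depend for folding. It had 354, 365 and 413 TPM in the Plcg2-/- libraries, against 532, 603 and 580.1 TPM in the Plcg2+/+ libraries. The groups were separated by more than the range within either. Its log2 fold change was -0.60 ± 0.12 (SE; limma adjusted p = 0.0163), and it did not pass without Plcg2-/- 1 (log2 fold change -0.56, limma adjusted p = 0.0740) or with Y-linked expression in the model (-0.59, 0.0575). Its promoter window holds the ERSE pair shown above. Its exons overlap those of Gm15344 on the same strand by 84 bases, a gene at 1.36 to 4.00 TPM here.

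Calr, Canx and Creld2 did not pass. Calr encodes calreticulin and Canx calnexin, the lectin chaperones that retain glycoproteins until they are folded. Calr had 546, 662 and 719 TPM in Plcg2-/- and 775, 916 and 787 TPM in Plcg2+/+ libraries. Canx had 202, 175 and 227 TPM in Plcg2-/- and 273, 237 and 242 TPM in Plcg2+/+. Creld2, which encodes a small secreted stress-inducible protein, had 20.3, 26.0 and 21.9 TPM in Plcg2-/- and 26.6, 30.0 and 29.9 TPM in Plcg2+/+. In these 3 genes every Plcg2-/- library lay below every Plcg2+/+ library, although the gap for Creld2 was only between 26.0 and 26.6 TPM. Their log2 fold changes were -0.37 ± 0.15, -0.32 ± 0.13 and -0.34 ± 0.13 (SE; limma adjusted p = 0.119, 0.127 and 0.102). After median-of-ratios scaling Canx and Creld2 passed (limma adjusted p = 0.0434 and 0.0410), and over all settings their adjusted p ran up to 0.299 and 0.282.

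Pdia3, Pdia4 and Pdia6, which encode protein disulfide isomerases that form and rearrange disulfide bonds, did not pass. Pdia6 had 145, 147.6 and 179 TPM in Plcg2-/- and 173, 185 and 189.8 TPM in Plcg2+/+ libraries (log2 fold change -0.22, limma adjusted p = 0.226). Pdia3 had 355, 317 and 352 TPM in Plcg2-/- and 398, 412 and 354 TPM in Plcg2+/+ (log2 fold change -0.18, limma adjusted p = 0.289). Pdia4 overlapped fully, with 63.8 to 81.4 TPM in Plcg2-/- libraries, against 66.3 to 82.1 TPM in Plcg2+/+ libraries. For Pdia6 the groups shared only the stretch between 173 and 179 TPM, and it passed under quantile normalization alone (limma adjusted p = 0.0352).

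Hspa5 encodes BiP, the HSP70 chaperone that holds the sensors inactive and is the textbook readout of the unfolded protein response. It stood at 443, 447 and 489 TPM in the Plcg2-/- libraries and at 492, 517 and 469 TPM in the Plcg2+/+ libraries. Plcg2-/- 3 lay between the Plcg2+/+ libraries, so the groups overlapped. The log2 fold change was -0.10 ± 0.11 (SE; limma adjusted p = 0.535) and lay between -0.34 and -0.07 over all 17 other settings, none of which called it. Its J-domain partners overlapped too, with 111 to 127 TPM in Plcg2-/- and 120.4 to 139.5 TPM in Plcg2+/+ for Dnajb11, 26.8 to 36.1 and 26.6 to 33.6 TPM for Dnajb9, and 32.2 to 44.4 and 33.1 to 38.1 TPM for Dnajc3, in the same order of genotypes. Sdf2l1, a partner of Dnajb11, Manf, a secreted ER protein, and Edem1, which passes misfolded glycoproteins on for degradation, had log2 fold changes of 0.18, 0.06 and 0.03 (limma adjusted p = 0.329, 0.748 and 0.887). Under quantile normalization these 3 were -0.12, -0.24 and -0.26.

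Herpud1 (ENSMUSG00000031770.16, chr8:94386438-94395377, plus strand, protein coding) encodes a membrane protein of ER-associated degradation, the route by which misfolded proteins leave for the proteasome. It had 62.3, 52.8 and 54.3 TPM in the Plcg2-/- libraries, against 34.1, 21.3 and 37.2 TPM in the Plcg2+/+ libraries. The groups did not overlap, and Plcg2+/+ 2 was the lowest library. Its log2 fold change of 0.89 ± 0.21 (SE) passed (limma adjusted p = 0.0283), and after median-of-ratios scaling it was 0.71 with a limma adjusted p of 0.0530. Quantile normalization (log2 fold change 0.61, limma adjusted p = 0.0600), testing with no filter on low values (0.89, 0.0675) and Y-linked expression in the model (0.87, 0.0775) also ended the call. So did leaving out Plcg2+/+ 1 (0.97, 0.0675), Plcg2-/- 1 (0.81, 0.116), Plcg2-/- 2 (0.93, 0.0584) or Plcg2-/- 3 (0.91, 0.0849), given in the same order of quantities. Of the 14 chaperone targets with a window, only Herpud1 held a CARE. Among the tested ATF4-type targets with a window, the 3 with a CARE had a median log2 fold change of 0.48. The 6 without a CARE had a median of 0.67. Whether the element bears on any of these levels was not tested.

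**Figure D4:**
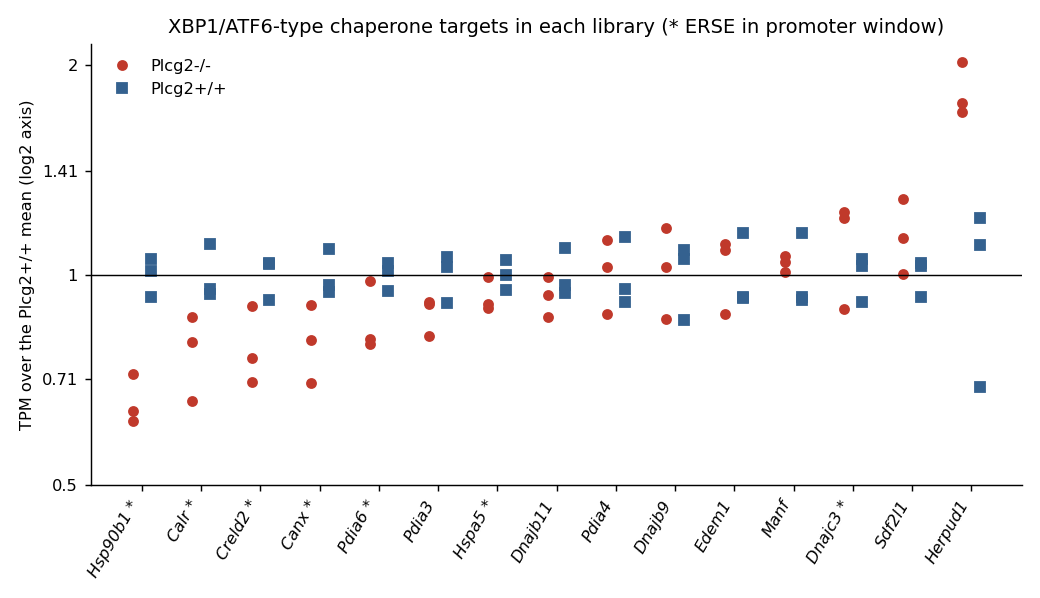
TPM of the 15 chaperone targets in each library, divided by the Plcg2+/+ mean of the gene (log2 axis), Plcg2-/- as red circles left of Plcg2+/+ as blue squares, ordered by the ratio of means; asterisks mark an ERSE in the promoter window. Hsp90b1 is at the low end and Herpud1 at the high end, and the 5 genes of lowest ratio all carry an ERSE.

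The ERSE-bearing chaperone genes had lower fold changes than the others, given here as a description with no test. Their median log2 fold change was -0.32 over 7 genes, from -0.60 for Hsp90b1 to 0.13 for Dnajc3. The 7 chaperone targets whose window held none had a median of 0.02, from -0.18 for Pdia3 to 0.89 for Herpud1. In mean TPM over the 6 libraries, which is per length, ERSE-bearing genes ran from 734 TPM for Calr, the most abundant member, through Hspa5, Hsp90b1 and Canx at 476, 474 and 226 TPM, to 25.8 TPM for Creld2. Manf, for which no promoter window was found, is in neither group.

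Nupr1, Sesn2 and Atf5 rose among the 10 ATF4-type targets tested and 0 fell (1 lower at an unadjusted p below 0.05, by limma), beside 15.6% higher and 5.31% lower over all genes. Leaving out Plcg2-/- 1 gave 1 higher gene in this role, leaving out Plcg2+/+ 1, Plcg2+/+ 2 or Plcg2-/- 2 gave 2, and leaving out Plcg2-/- 3 gave 4. Summed over all 11, the level was 605, 516 and 432 TPM in Plcg2-/- and 298, 234 and 326 TPM in Plcg2+/+ libraries; the largest means in Plcg2-/- were those of Nupr1 and Ddit3 (189 and 113 TPM), and in Plcg2+/+ those of Ddit3 and Ppp1r15b (68.1 and 59.4 TPM). Log2 fold changes were above the median of all genes for 7 of the 10, and the genes below it were Ppp1r15b, Psat1 and Ppp1r15a.

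Nupr1 (ENSMUSG00000030717.9, chr7:126623249-126630861, minus strand, protein coding) encodes a small stress-induced chromatin protein. It had 232, 197 and 139 TPM in the Plcg2-/- libraries, against 54.7, 23.3 and 72.0 TPM in the Plcg2+/+ libraries. Values spread widely within both genotypes, yet the lowest Plcg2-/- library was above the highest Plcg2+/+ library. The log2 fold change was 2.01 ± 0.41 (SE; limma adjusted p = 0.0178), the largest of the members tested. It did not pass without Plcg2+/+ 1 (0.0552), Plcg2-/- 1 (0.0846) or Plcg2-/- 2 (0.0521), nor with the Y-linked covariate (0.0517), while its log2 fold change stayed between 1.55 and 2.34 over all settings.

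Sesn2 (ENSMUSG00000028893.8, chr4:132492032-132510501, minus strand, protein coding) encodes sestrin 2, a leucine-binding inhibitor of mTORC1. Its levels were 20.0, 16.02 and 13.5 TPM in Plcg2-/- and 9.46, 6.04 and 7.17 TPM in Plcg2+/+ libraries, with no overlap. Sesn2 had a log2 fold change of 1.04 ± 0.20 (SE; limma adjusted p = 0.0151) and did not pass without Plcg2+/+ 2 (log2 fold change 0.91, limma adjusted p = 0.0520) or Plcg2-/- 1 (0.90, 0.0698).

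Atf5 (ENSMUSG00000038539.15, chr7:44812256-44816658, minus strand, protein coding) encodes a transcription factor related to ATF4 that also serves in the mitochondrial stress response. It had 35.4, 39.3 and 40.5 TPM in the Plcg2-/- libraries, against 23.4, 24.1 and 23.6 TPM in the Plcg2+/+ libraries. The Plcg2+/+ values were nearly alike, with an SD of 0.363 TPM. The log2 fold change of 0.67 ± 0.10 (SE; limma adjusted p = 0.00667) passed under all 17 other settings, between 0.44 and 0.73. Atf5 shares 82 exon bases with Nup62 on the opposite strand (20.6 to 32.2 TPM), and whether reads were assigned by strand is not stated.

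Ddit3, which encodes the death-linked factor CHOP, had 141, 134 and 65.0 TPM in the Plcg2-/- libraries, against 81.7, 63.0 and 59.5 TPM in the Plcg2+/+ libraries. Plcg2-/- 1 and 2 lay above every Plcg2+/+ library and Plcg2-/- 3 among them, and each Plcg2-/- library was above the Plcg2+/+ library of its number in 3 of 3 pairs. The log2 fold change of 0.66 ± 0.30 (SE) did not pass (limma adjusted p = 0.1602, or 0.0629 with the pairs); without Plcg2-/- 3 it was 1.01 and passed (0.0260), and over all settings its adjusted p ran up to 0.474. Ddit3 shares 68 exon bases with Mars on the opposite strand, a gene at 25.2 to 36.4 TPM.

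Trib3, Chac1 and Asns are known targets of CHOP or ATF4. Trib3, a pseudokinase gene, had 2.79, 3.30 and 1.52 TPM in Plcg2-/- and 1.57, 1.69 and 1.91 TPM in Plcg2+/+ libraries. Chac1, a glutathione-degrading enzyme gene that was too low to test, had 0.389, 0.720 and 0.0464 TPM in Plcg2-/- and 0.108, 0.139 and 0.260 TPM in Plcg2+/+. Asns, asparagine synthetase, had 7.43, 7.70 and 5.54 TPM in Plcg2-/- and 5.22, 3.16 and 5.79 TPM in Plcg2+/+. In Ddit3, Trib3, Chac1 and Asns, and also in Nupr1, Sesn2 and Atf4, Plcg2-/- 3 was the lowest of the 3 Plcg2-/- libraries; in Atf5, Phgdh, Psat1 and both Ppp1r15 genes it was not. This ordering was seen after the values and has no test. Trib3 and Asns did not pass (log2 fold changes 0.35 ± 0.24 and 0.48 ± 0.22 (SE); limma adjusted p = 0.336 and 0.165).

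**Figure D5:**
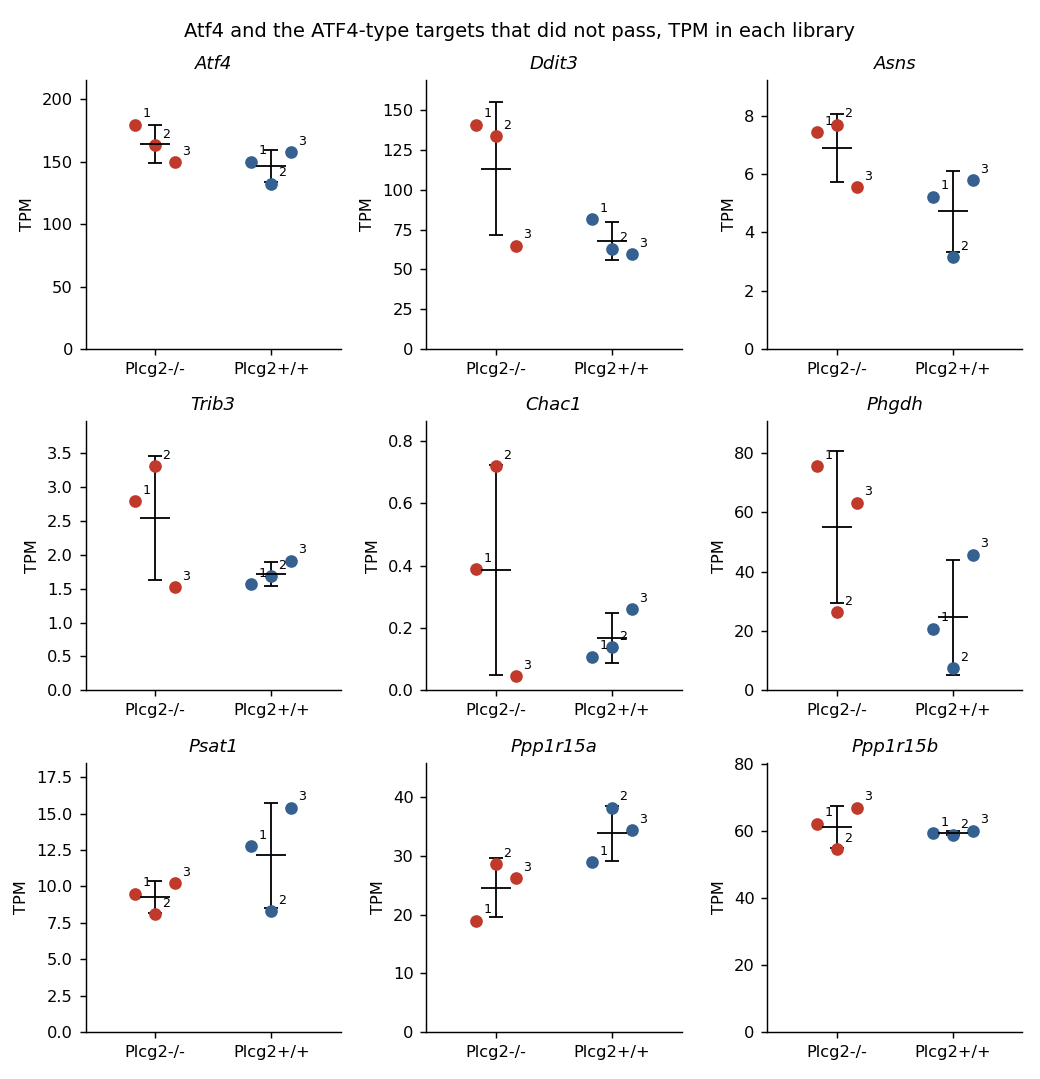
TPM of Atf4 and of the 8 ATF4-type targets that did not pass or were too low to test, in the 3 Plcg2-/- libraries (left, red) and the 3 Plcg2+/+ libraries (right, blue), numbered by replicate; black bars are mean and SD. In the panels of Ddit3, Trib3, Chac1 and Asns, Plcg2-/- 1 and 2 lie above the Plcg2+/+ libraries and Plcg2-/- 3 does not.

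Phgdh and Psat1 belong to serine synthesis. Phgdh, which encodes the first enzyme of that pathway, had 75.7, 26.5 and 63.3 TPM in Plcg2-/- and 20.8, 7.54 and 45.8 TPM in Plcg2+/+ libraries. Values ranged widely in both genotypes, and each Plcg2-/- library lay above the Plcg2+/+ library with its number. Phgdh did not pass at a log2 fold change of 1.32 ± 0.65 (SE; limma adjusted p = 0.183) and passed with the pairs (0.0283). Psat1, the next enzyme, had 9.51, 8.08 and 10.2 TPM in Plcg2-/- and 12.8, 8.29 and 15.4 TPM in Plcg2+/+ (log2 fold change -0.32 ± 0.22 (SE), limma adjusted p = 0.327).

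Both regulatory subunits of the phosphatase that removes phosphate from eIF2 were measured. Ppp1r15a, the stress-induced subunit GADD34, had 19.0, 28.6 and 26.2 TPM in Plcg2-/- and 29.0, 38.2 and 34.4 TPM in Plcg2+/+ libraries. Every Plcg2-/- value was below every Plcg2+/+ value, 28.6 and 29.0 TPM being the nearest. Its log2 fold change of -0.46 ± 0.18 (SE) did not pass (limma adjusted p = 0.114) and passed with the pairs (0.0302). Ppp1r15b, the constitutive subunit, averaged 61.3 ± 6.23 TPM in Plcg2-/- libraries, against 59.4 ± 0.631 TPM in Plcg2+/+ libraries (SD, n = 3 each; limma adjusted p = 0.826).

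Genes of the same pathways that are not among the 32 were read from lists drawn up from general knowledge, with earlier results of these data known. Beside the counts of each list stand the shares of all genes tested, 15.6% higher and 5.31% lower, and their median of 0.19. Of 19 other ER folding genes tested, 4 were lower by limma (6 at an unadjusted p below 0.05) and 0 higher (0 unadjusted), with a median log2 fold change of -0.08, and 18 lay below the median of all genes. Fkbp11, an ER prolyl isomerase gene, had 0.886, 1.24 and 2.07 TPM in Plcg2-/- and 12.9, 14.5 and 14.5 TPM in Plcg2+/+ libraries (log2 fold change -2.67 ± 0.20 (SE), limma adjusted p = 0.000922). Ero1lb, an ER oxidase gene, averaged 36.6 ± 4.85 TPM in Plcg2-/- libraries, against 58.4 ± 4.41 TPM in Plcg2+/+ libraries (limma adjusted p = 0.0156; 0.0532 without Plcg2+/+ 2 and 0.0655 without Plcg2-/- 1). P4hb, which encodes the prototype protein disulfide isomerase, averaged 349 ± 13.3 TPM in Plcg2-/- libraries, against 452 ± 24.6 TPM in Plcg2+/+ libraries (log2 fold change -0.37 ± 0.11 (SE), limma adjusted p = 0.0486). Leaving out any library other than Plcg2+/+ 3 ended the call, with limma adjusted p of 0.0939 to 0.137. In this list 1 gene stayed lower without Plcg2-/- 1, and 2 without Plcg2+/+ 1, Plcg2+/+ 2 or Plcg2-/- 3.

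In ER-associated degradation, to which Herpud1 belongs, 3 of 20 other genes were higher and 2 lower, with a median of 0.06. Edem2, a mannosidase-like relative of Edem1, fell to 47.6 ± 0.662 TPM in Plcg2-/-, against 94.6 ± 19.6 TPM in Plcg2+/+ (SD, n = 3 each, limma adjusted p = 0.00849). Among the higher genes, Ube2j1 rose to 26.0 ± 3.57 TPM in Plcg2-/-, against 15.7 ± 1.97 TPM in Plcg2+/+ (limma adjusted p = 0.0212). Nploc4 rose to 35.9 ± 2.68 TPM in Plcg2-/-, against 25.9 ± 0.355 TPM in Plcg2+/+ (limma adjusted p = 0.0248). Neither passed without Plcg2+/+ 1, Plcg2+/+ 2, Plcg2-/- 1 or Plcg2-/- 3. After median-of-ratios scaling Nploc4 did not pass (limma adjusted p = 0.114). Syvn1, the ubiquitin ligase HRD1 that works with Herpud1, averaged 38.6 ± 0.448 TPM in Plcg2-/- libraries, against 51.4 ± 4.55 TPM in Plcg2+/+ libraries (limma adjusted p = 0.0383), but did not pass without Plcg2+/+ 1 (0.113), Plcg2+/+ 2 (0.0985), Plcg2-/- 1 (0.115), Plcg2-/- 2 (0.0676) or Plcg2-/- 3 (0.112). Leaving out Plcg2+/+ 1, Plcg2+/+ 2, Plcg2-/- 1 or Plcg2-/- 3 gave 0 higher and 1 lower gene in this list, and leaving out Plcg2-/- 2 gave 2 and 1; 4 were higher and 2 lower at an unadjusted p below 0.05 with all libraries, and 1 was higher after median-of-ratios scaling. Of 19 genes of ER translocation, 2 were lower by limma (2 unadjusted) and 0 higher (1 unadjusted), with a median of -0.02; 1 was higher with the pairs and 4 were lower after median-of-ratios scaling. Sec63, a J-domain subunit of the translocon, averaged 41.2 ± 2.59 TPM in Plcg2-/- libraries, against 63.4 ± 4.92 TPM in Plcg2+/+ libraries (limma adjusted p = 0.0118; 0.0559 without Plcg2-/- 1). Without that library 0 genes of the list were lower, and 1 was lower without Plcg2+/+ 1, Plcg2+/+ 2, Plcg2-/- 2 or Plcg2-/- 3.

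The remaining eIF2 kinases and the subunits of eIF2 and its exchange factor eIF2B formed another list. Of 15 genes tested, 6 were higher, where 15.6% of all genes were, by limma and 0 lower (0 at an unadjusted p below 0.05), with a median of 0.32, and 3 were higher after median-of-ratios scaling. Eif2ak2, which encodes the interferon-induced eIF2 kinase PKR, had 71.5, 54.2 and 68.2 TPM in Plcg2-/- and 26.6, 16.2 and 26.2 TPM in Plcg2+/+ libraries. Its log2 fold change was 1.48 ± 0.21 (SE; limma adjusted p = 0.00590); whether it differs from that of Eif2ak3 or Eif2ak4 was not tested. Eif2b2 averaged 38.8 ± 0.826 TPM in Plcg2-/- libraries, against 25.2 ± 1.70 TPM in Plcg2+/+ libraries (limma adjusted p = 0.00940). Eif2ak1, another eIF2 kinase gene, averaged 31.9 ± 2.43 TPM in Plcg2-/- and 21.3 ± 1.75 TPM in Plcg2+/+ libraries (limma adjusted p = 0.0177). Eif2s1 averaged 52.6 ± 3.60 TPM in Plcg2-/- and 33.9 ± 4.29 TPM in Plcg2+/+ libraries (limma adjusted p = 0.0170). After median-of-ratios scaling neither Eif2ak1 nor Eif2s1 passed (limma adjusted p = 0.0524 and 0.0722). Without Plcg2+/+ 1, Plcg2-/- 1 or Plcg2-/- 3 the count higher was 2, without Plcg2+/+ 2 it was 3, and without Plcg2-/- 2 it was 4.

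Other ATF4-type targets moved both ways, with 2 of 20 higher, 3 lower and a median of 0.16; with the pairs 4 were higher and 3 lower. Slc1a5, a glutamine transporter gene, fell to 28.8 ± 2.74 TPM in Plcg2-/-, against 80.8 ± 4.45 TPM in Plcg2+/+ (SD, n = 3 each; limma adjusted p = 0.000922). Shmt2, which feeds serine into mitochondrial one-carbon metabolism, rose to 28.2 ± 3.03 TPM in Plcg2-/-, against 16.8 ± 1.44 TPM in Plcg2+/+ (limma adjusted p = 0.0114). Atf3, a stress factor often induced with CHOP, averaged 81.3 ± 8.32 TPM in Plcg2-/- libraries, against 195 ± 59.6 TPM in Plcg2+/+ libraries (limma adjusted p = 0.0125), a call lost on leaving out Plcg2+/+ 1 (0.0513), Plcg2-/- 1 (0.0511) or Plcg2-/- 3 (0.0550). Leaving out any of these 3 gave 1 higher and 1 lower gene in the list, and leaving out Plcg2-/- 2 gave 1 and 3. The cytosolic aminoacyl-tRNA synthetases, several of which ATF4 is known to induce, had 6 of 19 genes higher by limma and 0 lower (0 at an unadjusted p below 0.05), with a median of 0.34. Only 2 were higher after median-of-ratios scaling, and when 1 library was left out 1, 2 and 6 were higher without Plcg2+/+ 1, 2 and 3, and 0, 4 and 1 without Plcg2-/- 1, 2 and 3 (limma adjusted p = 0.0599 without Plcg2-/- 1 for Wars, the gene of smallest p in the list).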

How the data were processed

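TPM values per gene were deposited by the authors as a single table. The submitters' processing notes name Salmon 1.3.0 and DESeq2 1.30.1, R 4.0.4 and the build GRCm38.p6; how transcripts were summed to genes they do not say. TPM carries no counts, so no count model was fitted. On log2(TPM + 1), which understates changes of low genes, 12652 genes with a mean of at least 1 TPM were tested with limma 3.58.1 in R 4.3.3 (unpaired, two-sided, mean-dependent prior variance, 4 residual degrees of freedom), with Benjamini-Hochberg adjustment over all genes tested and a threshold of 0.05. The fit was tested on simulated data. Positions are from GENCODE (GRCm38), matched by gene identifier, 2 of them with another version number.

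The titles number the replicates. Same-numbered libraries deviated together from their genotype means, with correlations of 0.295, 0.193 and 0.147, all above the limit of 0.1. The numbers were therefore taken as pairs, although the labels state no pairing and the main fit is unpaired. Because the pairs were inferred from these same values, calls made only with the pairs are not independent of that choice. Each pair joined libraries unlike in Y-linked level. In Plcg2-/- and Plcg2+/+ these were 58.6 and 0.371 TPM for number 1, 0.783 and 107 TPM for 2, and 0.994 and 112 TPM for 3. Values with the pairs as a replicate block are given where a call changes.

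The members and lists were chosen with earlier results of these data known. All 32 members are named, with up to 4 called genes of smallest p per wider list. Python 3.11.15, pandas 2.3.3 and matplotlib 3.10.9 were used. A microglial marker is not reported here.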

Additional observations from a re-analysis of the deposited data

How the results depend on the processing

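Beside the main settings 17 others were run, 6 of which left out a library; Xbp1 and Atf5 kept their direction and call under all of them. With the replicate block the members lower were 2, with the block and median-of-ratios scaling 4, after median-of-ratios scaling 3 and after quantile normalization 5, while with the Y-linked covariate 3 members were higher and 0 lower. Over all genes the higher calls were 941 with the covariate, 1226 with no filter, 1000 after median-of-ratios scaling, 1223 after rescaling without mitochondrially encoded genes 959 after quantile normalization and 1236 with the block and median-of-ratios scaling; lower calls were 411 with the covariate, 1031 after quantile normalization and 1057 with the block and median-of-ratios scaling. Leaving out 1 library gave 559 to 2106 higher and 276 to 644 lower genes, and 2 to 5 higher and 0 to 1 lower members. Uncalled members near 0 changed sign. After median-of-ratios scaling, with and without the replicate block, the log2 fold changes were -0.01 for Atf4, -0.03 for Atf6, -0.15 for Dnajb9, -0.04 for Dnajc3, -0.14 for Edem1, -0.08 for Eif2ak3, -0.12 for Manf, -0.16 for Pdia4 and -0.14 for Ppp1r15b. After quantile normalization they were -0.12, -0.10, -0.22, -0.12, -0.26, -0.12, -0.24, -0.29 and -0.26 in the same order, and -0.12 for Sdf2l1. Without mitochondrially encoded genes they were -0.11 for Dnajb9, -0.10 for Edem1, -0.04 for Eif2ak3, -0.07 for Manf, -0.12 for Pdia4 and -0.09 for Ppp1r15b, and with the covariate -0.01 for Edem1. Leaving out 1 library gave -0.08 to 0.13 for Dnajb9, -0.03 to 0.14 for Edem1, -0.06 to 0.24 for Eif2ak3, -0.07 to 0.11 for Pdia4 and -0.03 to 0.12 for Ppp1r15b. On deposited TPM the block changed the calls of Phgdh and Ppp1r15a and of no other member. With median-of-ratios scaling it changed these calls and others. There Herpud1 passed with the block (limma adjusted p = 0.0355, against 0.0530 without it), as did Eif2ak4 (0.0474 against 0.0597). Canx lost its call (0.0520 against 0.0434). The cause of these shifts was not tested, beyond the scalings themselves. Pseudocounts of 0.1 and 0.5, a constant prior variance and a limit of 5 TPM changed no call of a member. With 3 libraries per genotype and no depth, small changes may go unseen.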

Other observations

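Stress genes of other compartments were read from lists drawn up in the same way. Of 11 cytosolic heat-shock genes tested, 3 were higher and 1 lower, with a median log2 fold change of 0.04, beside 15.6% higher and 5.31% lower over all genes. Dnaja1, a J-domain partner of cytosolic HSP70, averaged 122 ± 9.85 TPM in Plcg2-/- libraries, against 78.2 ± 3.10 TPM in Plcg2+/+ libraries (SD, n = 3 each; limma adjusted p = 0.00948). Hspa8, the constitutive HSP70, averaged 1244 ± 123 TPM in Plcg2-/- libraries, against 738 ± 141 TPM in Plcg2+/+ libraries (limma adjusted p = 0.0236; up to 0.0997, without Plcg2-/- 1). Hsp90aa1, the cytosolic relative of Hsp90b1, averaged 59.1 ± 6.60 TPM in Plcg2-/- libraries, against 83.0 ± 5.26 TPM in Plcg2+/+ libraries (limma adjusted p = 0.0323), and missed the threshold whichever library was left out (0.0571 to 0.107). Leaving out Plcg2+/+ 2, Plcg2-/- 1 or Plcg2-/- 3 gave 1 higher and 0 lower genes, and with the pairs 2 were lower.

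Of 10 mitochondrial chaperone and protease genes, 0 were higher or lower by limma, with 3 higher and 0 lower at an unadjusted p below 0.05 and a median of 0.22; with the pairs 1 was higher. Of 9 death genes linked to ER stress, 3 were higher and 1 lower, with a median of 0.17. Mcl1 was among the higher genes and Bcl2 was the lower one. Genes were listed whether they favour or oppose death, so these counts carry no direction of effect. Mcl1 averaged 456 ± 53.5 TPM in Plcg2-/- and 310 ± 37.9 TPM in Plcg2+/+ libraries (limma adjusted p = 0.0365, or 0.128 without Plcg2-/- 1). Mcl1 kept its call without Plcg2-/- 2 (limma adjusted p = 0.0477) and lost it without any other library (0.0515 to 0.128). After median-of-ratios scaling Mcl1 did not pass (limma adjusted p = 0.118). Bcl2 averaged 1.57 ± 0.511 TPM in Plcg2-/- and 3.62 ± 0.521 TPM in Plcg2+/+ libraries (limma adjusted p = 0.0287, or 0.0997 without Plcg2-/- 1). Pmaip1, which encodes the BH3 protein NOXA, had 22.0, 16.8 and 16.5 TPM in Plcg2-/- and 8.48, 8.10 and 7.74 TPM in Plcg2+/+ libraries (log2 fold change 1.08 ± 0.14 (SE), limma adjusted p = 0.00385). Bak1, an executor of mitochondrial permeabilization, averaged 74.5 ± 2.705 TPM in Plcg2-/- libraries, against 45.7 ± 5.84 TPM in Plcg2+/+ libraries (limma adjusted p = 0.0107; 0.0532 without Plcg2-/- 1). Leaving out Plcg2-/- 1 gave 1 higher gene, leaving out any Plcg2+/+ library or Plcg2-/- 3 gave 2, and 0 were lower in each of these; after median-of-ratios scaling 2 were higher and 2 lower.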
